A study of Rattus norvegicus with 12 samples.

Results

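Rtn4 and Slit1 are host genes of 3 circular RNAs (circRNAs) that the study listed as lower in the orbitofrontal cortex (OFC) of male rats after heroin self-administration. The 3 are all the circRNAs carrying these host gene names among the 75 listed circRNAs with a row here, out of 14145 circRNA probes on the array. The study's own count of listed circRNAs is larger, and counts of listed circRNAs below are of these 75. They were matched by probe identifier to the scanner output and to the authors' deposited log2 values. Rtn4 gave rno_circRNA_004644 and mmu_circRNA_23123, called here the short and the long Rtn4 circRNA, and Slit1 gave rno_circRNA_001230, called circSlit1. They were selected on measured values, the fold change and p of heroin against saline, so the values of those groups are described here without a test, and only sucrose against naive was tested. The fold change and p that chose them did not use the sucrose and naive arrays. The study's filter for present circRNAs did count all 12 arrays. The test takes its spread from all 12 arrays, so a fit of the 6 sucrose and naive arrays alone is given beside it. That fit keeps the values normalized over all 12 arrays. The study also measured an Rtn4 circRNA and circSlit1 by qPCR in male and female rats. Neither differed significantly after heroin in either sex, and the study described circSlit1 as trending higher in females. The qPCR was not analysed here.

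All 12 animals were adult male Sprague Dawley rats, 8 weeks old on arrival, with 3 rats per group and 1 array per rat. Rats of the heroin and saline groups had a jugular vein catheter and self-administered heroin or saline in 10 daily sessions of 6 h. Rats of the sucrose group, without surgery, self-administered chocolate sucrose pellets in 10 daily sessions of 2 h, and naive rats, also without surgery, were placed in the chamber for 2 h on each of 10 days with no protocol active. OFC tissue was taken right after the last session, so each value is of a whole tissue punch, in which fewer cells of a type and less RNA per cell cannot be told apart. Before labelling with Cy3, RNase R was used to remove linear RNA, which it digests from a free end, while circles have no end. The study states that not all linear mRNAs are rapidly degraded by it.

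CircRNAs form when a downstream splice donor of a pre-mRNA joins an upstream acceptor, and an array probe detects a circRNA through the sequence across that backsplice junction. Rtn4 encodes reticulon 4 (Nogo), a protein of the endoplasmic reticulum whose long isoform, Nogo-A, is known as a myelin-associated inhibitor of neurite outgrowth and is made by oligodendrocytes and by neurons. Slit1 encodes a secreted guidance ligand made by neurons, which repels growing axons through Robo receptors. A circRNA need not share the function of the protein its host gene encodes, and its level says nothing by itself about the linear mRNA, which was not analysed here.

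The probes are shown because they define what each value measures. All have 60 bases and are written 5′ to 3′. The capitals mark the 23 bases that both Rtn4 probes hold.
Short Rtn4 circRNA, rno_circRNA_004644: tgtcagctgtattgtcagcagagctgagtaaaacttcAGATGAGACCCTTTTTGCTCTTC
Long Rtn4 circRNA, mmu_circRNA_23123: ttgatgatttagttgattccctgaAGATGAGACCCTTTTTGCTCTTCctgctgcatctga
circSlit1, rno_circRNA_001230: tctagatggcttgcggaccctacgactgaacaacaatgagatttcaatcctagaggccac

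The Rtn4 circRNAs lie on the plus strand of chromosome 14 and are listed with the same start. The short one runs from 113804892 to 113808157, a span of 3265 bp, and the long one from 113804892 to 113835507, a span of 30615 bp that encloses it. Both are listed as exonic with the transcript NM_031831. The run shared by their probes occupies bases 38 to 60 of the short circRNA's probe and bases 25 to 47 of the long one's. The 37 bases before the run in the first probe and the 24 before it in the second differ, as do the listed ends of the circles. The probes thus differ in their 5′ parts, and the base at which each crosses its junction was not determined here. Signal from partial binding of the other Rtn4 circle was not tested.

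circSlit1 is listed as exonic on the minus strand of chromosome 1 from 268337164 to 268337547, with the transcript NM_022953. Its span of 383 bp was the 4th shortest of the 75 listed circRNAs, whose median span was 14501 bp. The short Rtn4 circRNA was the 17th shortest and the long one the 52nd. No source used here names the genome build of these positions. The circSlit1 probe shared no run longer than 6 bases with either Rtn4 probe. Against the listed probes of other host genes, the longest shared run was 10 bases for each Rtn4 probe and 9 bases for circSlit1. Guanine and cytosine made up 43.3% of the short Rtn4 probe, 41.7% of the long one and 48.3% of the circSlit1 probe, between 28.3% and 61.7% over the 75 listed probes (median 45.0%).

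All 3 circRNAs were well above background on all 12 arrays, as were 13288 of the 14145 circRNA probes, and no spot of a circRNA was saturated. The share of probes well above background was 95.7% to 98.6% per array, and the median background-subtracted intensity ran from 70.1 to 141. Values below are log2 intensities, background-subtracted and quantile-normalized over the 12 arrays. Levels of different probes are not comparable with each other, since each probe binds with its own strength. The scanner output gives 2 scans: the naive arrays and sucrose 3 were in the second, and the other 8 in the first. Between a group of the first scan and the naive group, scan and group cannot be told apart. Surgery and session length also differed between the heroin or saline group and the sucrose or naive group. The study's methods describe single housing and food restriction with the surgery. Acclimation and recovery times were given for the heroin and saline rats only, so age at tissue collection may have differed too. The labels number the rats of a group without saying more. The p-values therefore weigh a difference against the spread between these arrays, and 3 per group limit the precision of every value.

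The short Rtn4 circRNA was lowest in heroin rats and about level in the other groups. Its log2 intensity was 7.91, 7.95 and 7.53 on the heroin arrays and 8.63, 8.62 and 8.55 on the saline arrays. On the sucrose arrays it was 8.38, 8.35 and 8.93, and on the naive arrays 8.30, 8.55 and 8.31. All heroin arrays were below all 9 others, while the ranges of the saline, sucrose and naive groups overlapped. The gap from the saline arrays is part of what chose this circRNA. The means fell in the order saline (8.60 ± 0.04, SD, n = 3), sucrose (8.55 ± 0.32), naive (8.39 ± 0.14) and heroin (7.80 ± 0.23), and of the neighbours in this order only naive and heroin did not overlap. In background-subtracted intensity, before normalization, the heroin arrays gave 179 to 241 and the saline arrays 307 to 485.

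The long Rtn4 circRNA was highest in saline rats, and the other groups lay close together. On the heroin arrays its log2 intensity was 10.07, 10.15 and 10.07, and on the saline arrays 10.93, 10.74 and 10.69. It was 10.12, 10.64 and 10.42 on the sucrose arrays and 10.31, 10.59 and 9.88 on the naive arrays. All saline arrays were above all 9 others, the closest being sucrose 2, and the heroin arrays lay inside the range of the naive arrays. The gap between saline and heroin is part of what chose this circRNA. The order of the means was the same as for the short circRNA: saline (10.79 ± 0.13, SD, n = 3), sucrose (10.39 ± 0.26), naive (10.26 ± 0.35) and heroin (10.10 ± 0.04). Here saline and sucrose did not overlap, and sucrose, naive and heroin each overlapped the next.

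circSlit1 was high in saline and sucrose rats and low in heroin and naive rats. Its log2 intensity was 8.96, 8.17 and 8.27 on the heroin arrays and 9.17, 9.58 and 9.08 on the saline arrays. On the sucrose arrays it was 9.10, 8.55 and 9.30, and on the naive arrays 8.28, 8.09 and 8.47. Every sucrose and every saline array was above every naive array, and heroin 1 was high among the heroin arrays, just below the lowest saline array. The means fell in the order saline (9.28 ± 0.26, SD, n = 3), sucrose (8.98 ± 0.39), heroin (8.47 ± 0.43) and naive (8.28 ± 0.19), and each group overlapped the next in this order. In intensity, the naive arrays gave 201 to 366 and the sucrose arrays 463 to 707.

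**Figure D1:**
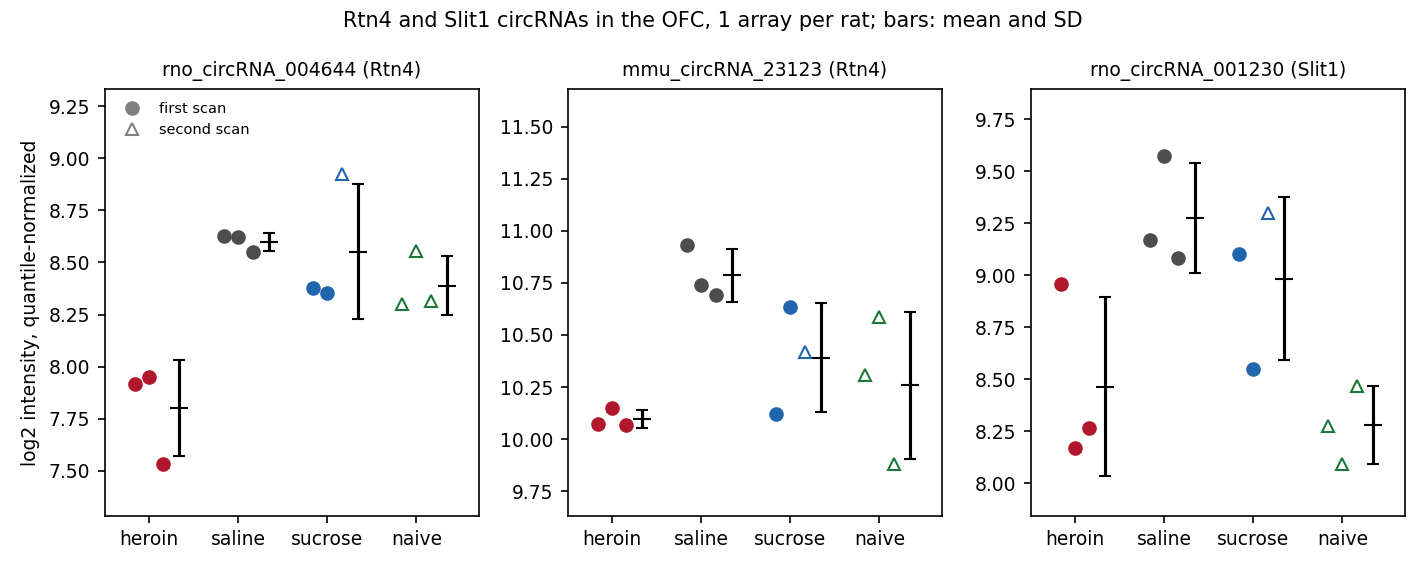
Normalized log2 intensity (vertical axis, each panel on its own range of equal width) of the 3 circRNAs in the 4 groups on the horizontal axis. Each point is 1 array, filled circles from the first scan and open triangles from the second, and bars give the mean and SD of 3 arrays; the heroin arrays are lowest for the short Rtn4 circRNA, the saline arrays highest for the long one, and the naive arrays lie below the saline and sucrose arrays for circSlit1.

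The order of the group means of each circRNA was the same with normexp background correction, without background subtraction, with scaling to the 75th percentile and in the authors' deposited values. As background to the groups that did not overlap, 14.2% of the 13979 circRNAs tested had all saline arrays above all naive arrays and 8.75% had them above all sucrose arrays. All heroin arrays were below all naive arrays for 10.8% and below all sucrose arrays for 6.82%. These shares are for pairs of groups. The share of circRNAs with heroin below, or saline above, the arrays of every other group was not counted, so how common such a separation is was not tested.

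Heroin against saline was the contrast that chose these circRNAs, and its values are a description. The log2 difference, heroin minus saline, was -0.80 (standard error 0.18) for the short Rtn4 circRNA, -0.69 (standard error 0.19) for the long one and -0.81 (standard error 0.25) for circSlit1. The corresponding folds were 1.74, 1.61 and 1.75. All 3 had every heroin array below every saline array and passed the study threshold, a fold above 1.5 with an unadjusted p below 0.05. Here and below, the p of the study threshold is from limma unless another test is named, and limma was not the study's test. With this p, 1.5% of the 13979 circRNAs tested (209) passed that threshold as lower after heroin. By its own test and values, the study listed 42 circRNAs with a row here as lower. All heroin arrays were below all saline arrays for 6.59% of the circRNAs tested. In the deposited log2 values, from which the list was made, the differences were -0.73 for the short Rtn4 circRNA, -0.66 for the long one and -0.75 for circSlit1, folds of 1.66, 1.58 and 1.68. Among probes with an unadjusted p below 0.05 in those values, the closest inside the fold limit was rno_circRNA_010912, 1.503-fold higher after heroin, and the closest outside was probe ASCRPR006796, 1.497-fold higher.

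The arrays within a group did not spread alike. For the long Rtn4 circRNA the heroin arrays had an SD of 0.04 and the naive arrays 0.35, and for the short one the saline arrays had 0.04 and the sucrose arrays 0.32. circSlit1 spread most on the heroin arrays, with an SD of 0.43. Without heroin replicate 1, the array that stood above the other heroin arrays, its heroin minus saline difference was -1.06.

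Sucrose against naive asked whether another reward, taken by rats without a catheter, goes with a change in the same circRNAs. circSlit1 was higher after sucrose by a log2 difference of 0.70 (standard error 0.25, 95% interval 0.17 to 1.24), or 1.63-fold, with an adjusted p of 0.379 from limma over 13979 circRNAs. Its unadjusted p was 0.0141, and the exact permutation test of 3 against 3 arrays gave p = 0.1, the smallest that it allows (two-sided). With the 6 sucrose and naive arrays alone in the fit, its adjusted p was 0.61 (95% interval 0.18 to 1.23). circSlit1 therefore did not pass after adjustment, although it passed the study threshold and all 3 sucrose arrays were above all 3 naive arrays. Over all circRNAs tested, 4.77% passed the study threshold and 13.4% had groups that did not overlap, and as higher after sucrose 2.74% and 5.14% did. Without sucrose replicate 3 (0.55, unadjusted p = 0.0641 in limma) or naive replicate 2 (0.61, unadjusted p = 0.052 in limma), circSlit1 no longer passed the study threshold. By size, its difference was larger than that of 97.7% of the circRNAs, and 516 had a smaller p.

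For the Rtn4 circRNAs the difference between sucrose and naive was smaller than the spread between arrays. The short one gave 0.16 (standard error 0.18, 95% interval -0.23 to 0.56, adjusted p = 0.747 from limma; exact permutation test, p = 0.5). The long one gave 0.13 (standard error 0.19, 95% interval -0.28 to 0.55, adjusted p = 0.81 from limma; exact permutation test, p = 0.6). As folds of sucrose over naive, the intervals ran from 0.850 to 1.47 for the short circRNA and from 0.823 to 1.46 for the long one. With the spread of the 6 sucrose and naive arrays alone, they widened to 0.802 to 1.56 (adjusted p = 0.834 from limma) and 0.760 to 1.58 (adjusted p = 0.88 from limma), which reaches past the 1.5-fold of the study threshold. A p above the threshold does not show that the groups were alike. The median difference over all circRNAs tested was -0.01.

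**Figure D2:**
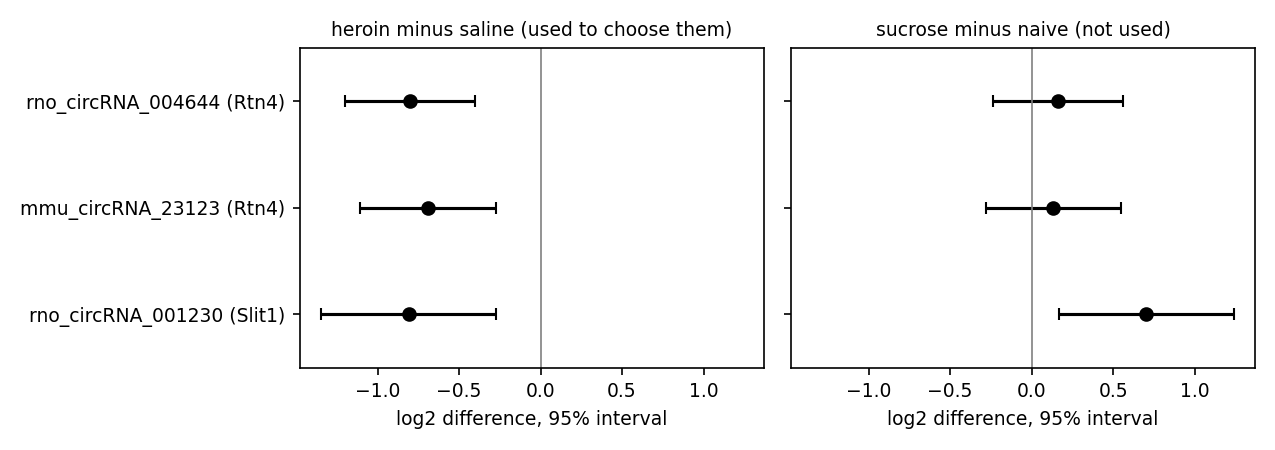
Log2 differences (horizontal axis) of the 3 circRNAs for heroin minus saline, which was used to choose them, and sucrose minus naive, which was not. Points are estimates from the fit over 12 arrays and bars their 95% intervals; all 3 are below 0 at left, and at right circSlit1 is at 0.70 while the Rtn4 circRNAs are at 0.16 and 0.13.

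Only sucrose 3 shared a scan with the naive arrays. Within that scan, which is also the estimate with scan as a block, circSlit1 was higher by 1.02 (standard error 0.34, adjusted p = 0.539 from limma), a value that rests on 1 sucrose array. Without sucrose replicate 3, the remaining sucrose and naive arrays lay in different scans. The short Rtn4 circRNA was higher by 0.54 within the second scan (standard error 0.21, adjusted p = 0.549 from limma) and -0.025 without sucrose replicate 3, so its difference rested on that array. The long one gave 0.16 within the second scan and -0.054 without naive replicate 3. Sucrose 3 differed from the mean of sucrose 1 and sucrose 2 by 0.56 for the short Rtn4 circRNA, 0.48 for circSlit1 and 0.04 for the long Rtn4 circRNA. The part of the scan in these values was not tested.

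No circRNA passed an adjusted p of 0.05 between sucrose and naive rats by limma (0 of 13979, or 0%; 1558 at an unadjusted p below 0.05; smallest adjusted p = 0.0785), and the methods' t-test also gave 0. Among the 42 listed circRNAs lower after heroin, circSlit1 had the 4th highest sucrose minus naive difference, the short Rtn4 circRNA the 19th and the long one the 22nd. Of these 42, 28 were higher after sucrose than in naive rats with a median difference of 0.14, and 5, circSlit1 among them, passed the study threshold, all 5 higher (2.74% of all circRNAs tested passed it as higher). Of the 33 listed as higher after heroin, 21 were higher after sucrose as well, with a median of 0.04, and 2 passed the study threshold in either direction (4.77% of all circRNAs tested). Over all circRNAs tested 48.4% were higher after sucrose.

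**Figure D3:**
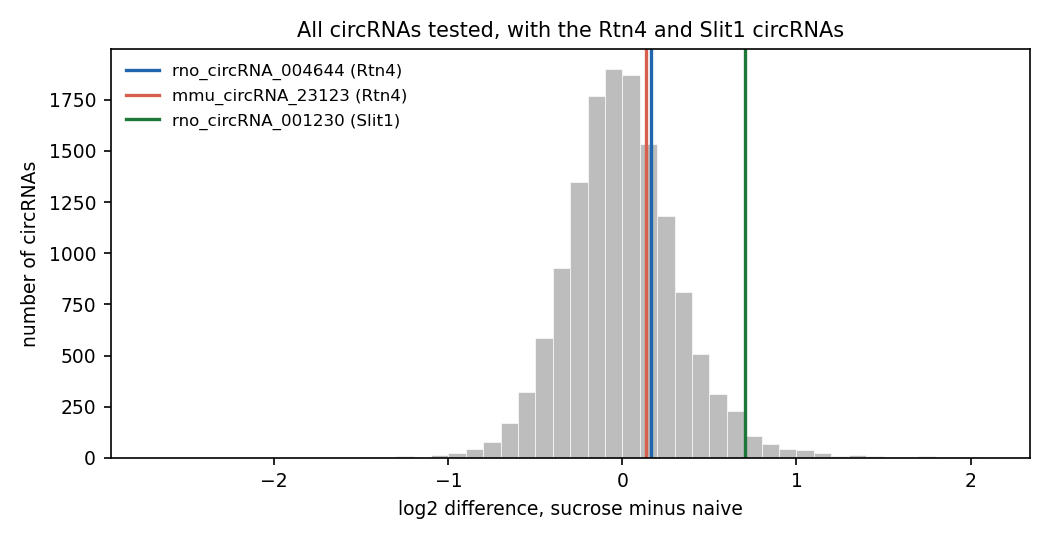
Number of circRNAs (vertical axis) by their log2 difference between sucrose and naive rats (horizontal axis, bins of 0.1) for the 13979 circRNAs tested. Vertical lines mark the 3 circRNAs; circSlit1, at 0.70, lies in the right tail, and the Rtn4 circRNAs, at 0.16 and 0.13, lie near the centre.

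The other comparisons share arrays with the contrast that chose the circRNAs, so they are given as values only. Relative to naive rats, saline rats had more circSlit1, by a log2 difference of 0.99 (standard error 0.25), and more of the long Rtn4 circRNA, by 0.53 (standard error 0.19), both without overlap of the arrays, as in 14.2% of all circRNAs tested. The short Rtn4 circRNA differed between saline and naive by 0.21 (standard error 0.18), with overlap. Heroin minus naive was -0.59 (standard error 0.18) for the short Rtn4 circRNA, without overlap (10.8% of all circRNAs tested), and -0.16 and 0.18 for the long one and circSlit1, with overlap. Heroin minus sucrose was -0.75 for the short Rtn4 circRNA, without overlap (6.82% of all circRNAs tested), and -0.30 for the long one and -0.52 for circSlit1, with overlap. Of the 3, the short Rtn4 circRNA was the circRNA whose heroin arrays lay below those of every other group. Heroin and saline arrays share the first scan with sucrose 1 and sucrose 2, and the naive arrays were all in the second.

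The Rtn4 circRNAs share a start, and their values were compared array by array. The log2 intensity of the short one minus that of the long one was -2.30 ± 0.21 (SD, n = 3) on the heroin arrays and -2.19 ± 0.10 on the saline arrays. The difference was -1.84 ± 0.40 on the sucrose arrays and -1.87 ± 0.26 on the naive arrays, and between these groups it differed by 0.03 (exact permutation test, p = 0.9, smallest possible 0.1). Only changes of this within-array difference can be read, not its level, since the probes bind differently.

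Over all 12 arrays the short and long Rtn4 circRNAs had a Pearson's r of 0.63 (Spearman's rho 0.73), the short one and circSlit1 0.56 (rho 0.64), and the long one and circSlit1 0.42 (rho 0.46). These are descriptions, since the choice of circRNAs low on the heroin and high on the saline arrays raises them. Over the 6 sucrose and naive arrays, 3 pairs were compared. The Rtn4 pair gave r = 0.35 (exact permutation test, p = 0.506, adjusted p = 0.74; rho 0.37, p = 0.497, adjusted p = 0.746). The short Rtn4 circRNA with circSlit1 gave r = 0.55 (exact permutation test, p = 0.267, adjusted p = 0.74; rho 0.43, p = 0.419, adjusted p = 0.746), and the long one with circSlit1 gave r = -0.18 (exact permutation test, p = 0.74, adjusted p = 0.74; rho -0.09, p = 0.919, adjusted p = 0.919). None passed the threshold. Without the 2 arrays farthest from the median of the first circRNA, these r became 0.48, 0.92 and -0.50, over 4 arrays each. With each circRNA taken as its deviation from its group mean, r was 0.28 for the Rtn4 pair, 0.46 for the short one with circSlit1 and -0.69 for the long one with circSlit1 (adjusted p = 0.583, 0.583 and 0.5, exact permutation tests). No value was computed within a scan, since the second held 4 of the 6 arrays and the first 2.

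**Figure D4:**
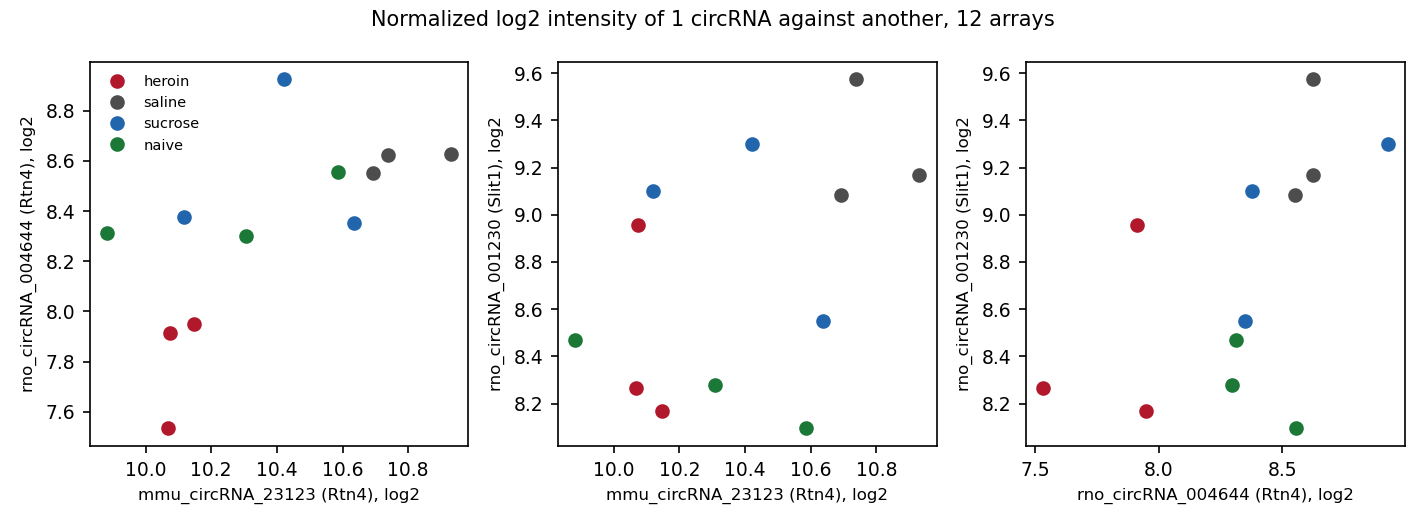
Normalized log2 intensity of 1 circRNA against another on 12 arrays (both axes log2), coloured by group. Heroin arrays lie low and saline arrays high on both axes of the Rtn4 panel, and circSlit1 has its naive arrays low while the long Rtn4 circRNA has them spread from 9.88 to 10.59.

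The circRNAs most like each of the 3 were sought among 13275 probes well above background on every array, by Pearson's r over the 12 arrays, as a description. For the short Rtn4 circRNA these were rno_circRNA_002996 from Ttc3, which encodes an E3 ubiquitin ligase (r = 0.90), probe ASCRPR011821 (r = 0.90) and probe ASCRPR013903 (r = 0.90, 0.895 before rounding). The Ttc3 circRNA, also on the study's list, had group means of 8.86 for heroin, 9.47 for saline, 9.53 for sucrose and 9.59 for naive rats, low in heroin rats alone like the short Rtn4 circRNA. Probes ASCRPR013008 (r = 0.93), ASCRPR003671 (r = 0.90) and ASCRPR009352 (r = 0.86) were the most like the long Rtn4 circRNA. The first of them had a mean of 6.02 in saline rats, against 5.61 to 5.75 in the other groups. For circSlit1 they were ASCRPR001967 (r = 0.88), ASCRPR012862 (r = 0.88) and ASCRPR013442 (r = 0.87). ASCRPR013442 had means of 8.52 in saline and 8.65 in sucrose rats and 8.12 and 8.01 in heroin and naive rats, the arrangement of circSlit1. The 3 circRNAs themselves were left out of this search, so it cannot show whether they rank among the most like each other. Host genes of probes off the study's list were not used here.

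Host gene names were used here for listed circRNAs only, so the wider pathways could be followed in few genes. Of 12 genes of Nogo signalling (such as the receptor Rtn4r), 3 other reticulons and 12 genes of Slit and Robo signalling, 0 were named by a listed circRNA. Of 24 genes of netrin, semaphorin and ephrin guidance, 1 was named, Unc5d, a receptor for the guidance ligand netrin. Its circRNA, rno_circRNA_006155, lay opposite to the others after heroin, with 7.31 ± 0.18 (SD, n = 3) in heroin and 6.52 ± 0.06 in saline rats, again by the contrast that chose it. In sucrose and naive rats it was at 6.92 ± 0.26 and 6.91 ± 0.18, a difference of 0.0025 (standard error 0.17, adjusted p = 0.997 from limma). Of 12 markers of oligodendrocytes, neurons, astrocytes and microglia, 0 were named, so neither the tissue label nor the share of cell types was checked.

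For each circRNA the study lists 5 microRNAs (miRNAs) predicted to bind it. The 3 circRNAs have 11 different miRNAs among their 15 entries, and 8 of these have a mature sequence in the RefSeq table (GRCr8). The miRNAs are shown with the seed, bases 2 to 8, in capitals, because the Rtn4 circRNAs share 3 of their 5. First are the 3 listed for both.
rno-miR-153-5p: gUCAUUUUugugauguugcagcu
rno-miR-125a-3p: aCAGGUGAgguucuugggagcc
rno-miR-20a-3p: aCUGCAUUacgagcacuuaca
Next are those listed for the short circRNA only, which have the same seed.
rno-miR-135a-5p: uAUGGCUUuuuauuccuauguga
rno-miR-135b-5p: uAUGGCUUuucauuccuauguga
Last is the first entry for circSlit1.
rno-miR-216a-3p: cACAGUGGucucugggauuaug

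The miRNA listed for both the long Rtn4 circRNA and circSlit1 was rno-miR-107-5p, while rno-miR-484 was listed for the long Rtn4 circRNA and rno-miR-133c, rno-miR-6320 and rno-miR-103-1-5p for circSlit1. Of the 75 listed circRNAs with a row here, 42 were listed as lower and 33 as higher after heroin. Among them, rno-miR-153-5p was named for 7 (6 lower, 1 higher), rno-miR-125a-3p for 3 and rno-miR-20a-3p for 2, all lower. Each of these counts includes both Rtn4 circRNAs, which are the only 2 for rno-miR-20a-3p. rno-miR-107-5p was named for 6, with 3 lower and 3 higher, and rno-miR-103-1-5p for 6, with 2 lower and 4 higher. A match to any of the 8 known seeds, read as the reverse complement of 7 bases on the probe's strand, was found in 0 of the 3 probes. Over the 75 listed probes, the site of rno-miR-153-5p (AAAATGA) was found in 1 and that of rno-miR-133c (ACCAGCT) in 1. The 60 bases of a probe are a small part of each circle, and no match there says only that these letters are not in this window.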

How the data were processed

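RNase R-treated OFC RNA was measured on 12 single-colour (Cy3) arrays, grouped as the sample labels name them, with 3 rats for each condition. The authors deposited background-subtracted spot intensity from Agilent Feature Extraction (version 11.0.1.1), and log2 values quantile-normalized with limma; these follow the signal before subtraction (r 0.999 to 1.00 per array), and no source used here says how background was handled.

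After removal of 9 outlier spots, circRNA intensities were log2-transformed and quantile-normalized between arrays. The 13979 of 14145 probes that were well above background on 3 or more arrays entered a limma fit (version 3.58.1, under R version 4.3.3) with a mean for each group and a shared spread, with Benjamini-Hochberg adjustment; the code was tested on simulated data. Intervals are 95%. Precision is limited by 3 arrays per group. The labels give replicate numbers and say nothing of pairing.

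The members and gene lists were chosen with earlier results of these data known. Named circRNAs are the 3 members, for each the 3 probes of highest correlation, and the probes nearest the study's fold limit; Unc5d came from the guidance list. Names, positions, probe sequences and predicted miRNAs come from the study's list. Alternatives covered background correction (normexp, offset 50), scaling, filters, arrays fitted, deposited values, the methods' t-test, intensity trend, array weights, blocks for replicate number and scan, and each array left out.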

Additional observations from a re-analysis of the deposited data

Results flagged for a closer look

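circSlit1 (rno_circRNA_001230) differed in opposite directions in the 2 comparisons, with no overlap of arrays in either: every heroin array was below every saline array (log2 difference -0.81) and every sucrose array above every naive array (0.70, adjusted p = 0.379 from limma; exact permutation test, p = 0.1). Of all circRNAs tested, 6.59% had all heroin arrays below all saline arrays and 5.14% all sucrose arrays above all naive arrays. The heroin difference minus the sucrose difference was -1.51. The difference between the comparisons was not tested, because the heroin and saline values had chosen the circRNA. Groups of 3 arrays are too small for a test of single outlying arrays.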

How the results depend on the processing

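Across the alternatives run, the heroin minus saline differences of the 3 circRNAs stayed below 0 and within 1 standard error of the reported value (-0.74 to -0.62 for the long Rtn4 circRNA, -0.88 to -0.66 for the short one, -1.06 to -0.66 for circSlit1). The sucrose minus naive difference of circSlit1 stayed positive, from 0.55 to 1.02, with limma adjusted p from 0.223 to 0.785. It passed the study threshold in all alternatives run except without sucrose replicate 3 and without naive replicate 2. With 1 array left out in turn it was 0.55 to 0.92; for the short Rtn4 circRNA it was -0.025 to 0.26, turning below 0 without sucrose replicate 3, and for the long one -0.054 to 0.30, turning below 0 without naive replicate 3. The correlations with 1 array left out ran from 0.17 to 0.58 for the Rtn4 pair, from -0.47 to 0.095 for the long Rtn4 circRNA with circSlit1 (above 0 without naive replicate 2; -0.69 for deviations from group means), and from -0.34 (without sucrose replicate 3) to 0.79 (without naive replicate 2, exact permutation test, adjusted p = 0.025) for the short one with circSlit1.

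The count of circRNAs at a limma adjusted p below 0.05, 0 as reported, became 2 with normexp on the median signal, 1 without background subtraction, 3 in the deposited values, 1 with an intensity trend, and 0 to 11 with 1 array left out. The count at an unadjusted p below 0.05, 1558, became 981 by the methods' t-test and 874 to 2602 with 1 array left out. The count past the study threshold, 667, became 149 with normexp, 319 without background subtraction, 285 in the deposited values, 254 by the methods' t-test, 1040 with array weights, and 444 (without naive replicate 1) to 1327 (without sucrose replicate 3; 1272 without naive replicate 3). The cause was not tested.

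Same-numbered sucrose and naive arrays did not deviate together (r -0.15 to -0.07 over circRNAs), nor did heroin and saline arrays (-0.23 to -0.04). Differently numbered arrays gave r from -0.13 to 0.20 for sucrose and naive and from -0.23 to 0.37 for heroin and saline. Whether any of the samples shared a batch was not tested. The fit with the replicate block left the sucrose minus naive differences at 0.70 (adjusted p = 0.484 from limma) for circSlit1, 0.16 for the short and 0.13 for the long Rtn4 circRNA, with 649 circRNAs past the study threshold. Probe signal was well above background on every array for all 3 circRNAs, and 3 arrays per group limit the precision.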
